A study of Mus musculus with 28 samples.

Results

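In the striatum, 381 wide domains of H3K27me3 were shared by A2a and D1 medium spiny neurons, and of the 271 coding genes that start in them 103 belonged to homeobox gene lists and 40 to lists of other developmental transcription factors. Of 39 Hox genes, which set position along the body axis, 37 had their transcription start site (TSS) in such a domain, as did 8 of 9 Pax genes. Of all coding genes 1.3% did, and of 34 genes that mark striatal projection neurons 0 did, a count too small to set apart from that share. H3K27me3 is written by Polycomb repressive complex 2, and it often it often spreads over long stretches around silent developmental genes. It is read by Polycomb repressive complex 1 and is linked to gene silencing that is passed on through differentiation. H3K4me3, the other mark profiled, sits at the promoters of active genes, and the overlap of both marks at a promoter is often called bivalency.

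The domains were selected on measured lengths. A member was an H3K27me3 island of the A2a list on chromosomes 1 to 19 that was at least 20000 bp long and overlapped by at least 1 bp a D1 island of at least 20000 bp. This gave 381 of 60191 A2a islands, and they overlapped 394 of 45760 D1 islands. Lengths and read counts in H3K27me3 are therefore given as a description, without a test. H3K4me3, gene annotation and base composition did not enter the choice.

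The series has 28 CUT&RUN (CnR) samples, of which 8 were used. These were H3K27me3 (Active Motif antibody) and H3K4me3 (Abcam antibody) in A2a and in D1 nuclei, with 2 replicates each. Nuclei were affinity-purified (INTACT) through a GFP-tagged nuclear membrane protein from the striatum of mice of both sexes, which carried Sun1-sfGFP;A2a-cre or Sun1-sfGFP;Drd1-cre, had a C57BL/6J background and were about 8 weeks old. Both groups carry the Sun1-sfGFP tag, and Cre expression from the A2a or the Drd1 driver defines the cell type. The libraries titled D1 for H3K27me3 have D1 as their cell type but A2a as their source name. The title was followed. The lists themselves differed at marker promoters in the direction of the titles, since the longest island at Adora2a was 45.0 kb in D1 with none in A2a, at Drd2 7.80 kb in D1 and 2.60 kb in A2a, and at Drd1 1.80 kb in D1 and 16.8 kb in A2a. Each deposited list pools its replicates, so no value below has a replicate error, no difference was tested across mice, and all intervals (Wilson, 95%) cover counting error only. Library totals are not part of the lists; reads in islands summed to 22091634 in A2a and 7878685 in D1, so read densities are not on a common scale between them. As a check of the tissue, 30 of 34 striatal projection neuron genes had an H3K4me3 peak at the promoter in the A2a list and 30 in the D1 list, against 59.3% and 56.8% of all coding genes. That list mixes genes of both cell types and does not tell them apart.

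Sequences from the domains are shown here because the results below turn on their CpG content, their H3K4me3 peaks and the microRNAs they hold. The following windows of 200 bases are centred on the H3K4me3 peak of A2a in 2 of the domains where H3K4me3 ranked highest in both lists. They were read from the plus strand of the GRCm38 (mm10) reference, and capitals mark CG dinucleotides. The Skap2 window (chr6:52012824-52013023) lies in an intron of the lincRNA Gm44077, 323 bp from its start. The Nr2f1 window (chr13:78203319-78203518) lies in an intron of the antisense transcript A830082K12Rik, 632 bp from its start. They hold 6 and 13 CG dinucleotides, and 0 and 1 GC box (GGGCGG, read on both strands).
Skap2 peak window: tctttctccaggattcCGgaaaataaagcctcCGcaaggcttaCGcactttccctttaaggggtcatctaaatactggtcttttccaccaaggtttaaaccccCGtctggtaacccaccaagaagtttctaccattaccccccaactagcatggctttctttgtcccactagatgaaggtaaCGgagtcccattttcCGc
Nr2f1 peak window: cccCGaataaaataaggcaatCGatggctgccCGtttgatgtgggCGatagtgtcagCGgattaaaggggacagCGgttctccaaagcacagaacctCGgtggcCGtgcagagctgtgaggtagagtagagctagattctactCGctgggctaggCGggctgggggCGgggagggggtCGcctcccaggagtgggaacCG

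For contrast, the 250 bases before the RefSeq start of 2 genes in domains without any H3K4me3 peak in either list are shown, with the same capitals. Hoxb8 (chr11:96281655-96281904, plus strand) lies in the Hoxb domain, outside annotated gene bodies. Otop1 (chr5:38277154-38277403, plus strand) lies in the Otop1 and Drd5 domain, in the annotated Otop1 gene model, outside its exons. They hold 12 and 13 CG dinucleotides in 250 bases, where the windows above have 200. Each holds 1 GC box (GGGCGG, read on both strands), as the Nr2f1 peak window does.
Hoxb8 promoter: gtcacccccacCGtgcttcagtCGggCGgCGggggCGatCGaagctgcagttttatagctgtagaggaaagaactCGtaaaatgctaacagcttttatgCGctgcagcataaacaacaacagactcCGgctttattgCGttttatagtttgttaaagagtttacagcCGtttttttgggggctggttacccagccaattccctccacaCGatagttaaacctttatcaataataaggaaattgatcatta
Otop1 promoter: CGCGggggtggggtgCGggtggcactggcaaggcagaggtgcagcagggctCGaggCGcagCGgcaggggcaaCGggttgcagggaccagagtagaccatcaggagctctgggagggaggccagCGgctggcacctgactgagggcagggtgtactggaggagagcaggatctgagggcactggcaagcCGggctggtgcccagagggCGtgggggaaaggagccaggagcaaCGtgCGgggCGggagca

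MicroRNA hairpins lay in the domains as well, and the mature arms that share a seed (bases 2 to 8, in capitals) across Hox domains are shown with the 3 clustered hairpins of another domain. Of 919 hairpins on chromosomes 1 to 19 in the RefSeq table, 13 lay inside 10 of the domains, or 1.41%, against 0.632% of the length of these chromosomes. The count is too small to read further.
miR-10a-5p: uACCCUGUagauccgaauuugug
miR-10b-5p: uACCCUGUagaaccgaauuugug
miR-196a-5p: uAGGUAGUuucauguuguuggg
miR-196b-5p: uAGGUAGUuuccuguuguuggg
miR-182-5p: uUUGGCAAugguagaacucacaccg
miR-96-5p: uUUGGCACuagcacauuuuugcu
miR-183-5p: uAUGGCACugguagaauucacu

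The miR-10a and miR-10b arms share the seed ACCCUGU and came from the Hoxb and Hoxd domains. The miR-196 arms share AGGUAGU and came from the Hoxb, Hoxc and Hoxa domains, with miR-196a-5p encoded at both Hoxb and Hoxc. The hairpins of miR-182, miR-96 and miR-183, known from sensory cells, lay together in a domain of 23.8 kb without a coding TSS near Nrf1. That domain had 3264 reads in A2a and 1503 in D1, and no H3K4me3 peak in either list. MicroRNA levels were not measured.

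The domains made up 0.633% of A2a islands and held 9.52% of the reads in A2a islands. A larger share of reads than of islands follows from the choice of long islands. They covered 15.6 Mb. Their lengths ran from 20 to 194.2 kb in A2a, with a median of 35.0 kb, and the wide D1 islands they overlapped had a median summed length of 29.8 kb and held 12.5% of the reads in D1 islands. The A2a islands just inside the length limit were 20, 20 and 20.2 kb long, with 1931, 2083 and 1784 reads. Those just outside it that also met a wide D1 island were 19.8, 19.8 and 19.4 kb long, with 1894, 1466 and 1234 reads. On the D1 side, islands of 20 kb with 948, 879 and 1023 reads were inside, and islands of 19.8 kb with 1028, 2539 and 1059 reads were outside. In A2a the read counts inside and outside the limit overlapped, and in D1 each of the 3 islands outside had more reads than those inside.

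A coding TSS lay in 209 of the domains (54.9%, 49.8 to 59.8). The share was 27.5% of 816 wide A2a islands without a wide D1 island, 26.3% of 99 wide D1 islands without a wide A2a island, and 7.70% of 30110 shorter A2a islands shared with D1. Longer islands have more room for a TSS, and the shared wide domains (median 35.0 kb) were longer than the wide islands of A2a alone (25 kb) and of D1 alone (24.4 kb). In all, 271 of 20807 coding genes had their TSS in a domain, or 1.3% of them. Of these, 103 belonged to the homeobox lists, 40 to the lists of other transcription factors and 128 to neither. The lists are families of symbols and are not complete, and Cdx2, Hlx and Hopx, which also encode homeodomain proteins, were among the 128. So were other transcription factor genes, such as Tfap2a, Tfap2b, Osr1, Sim1 and Nr2f1. The classes below therefore do not set factors against all other genes. For 165 of the 271 genes (60.9%) the whole gene body lay in the domain. The median gene length of the 271 was 13.1 kb, against 17.6 kb over all coding genes and 24.0 kb for genes that started in shorter shared islands.

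The Hox genes lay in 6 domains. The Hoxc domain (chr15:102900601-103072600) was the longest of them and spanned 172.0 kb (26415 reads) in A2a and 169.4 kb (11642 reads) in D1. It held the TSSs of 9 Hox genes from Hoxc13 to Hoxc4. The main Hoxb domain (chr11:96241601-96379600) spanned 138.0 kb (21364 reads) in A2a and 130.2 kb (9807 reads) in D1. A separate domain at Hoxb13 (chr11:96161401-96210000) measured 48.6 kb in A2a and 48.2 kb in D1. The Hoxd domain (chr2:74637001-74769800), which also holds Evx2, spanned 132.8 kb (23461 reads) in A2a and 129.2 kb (11330 reads) in D1. A Hoxa domain of 68.4 kb (chr6:52192001-52260400) had the same ends in both lists, with 13923 reads in A2a and 7064 in D1. The 2 Hox genes outside the domains, Hoxa4 and Hoxa13, started 248 and 480 bp beyond the ends of the 68.4 kb domain, which reached into both promoters. All 39 Hox promoters met an H3K27me3 island in both lists.

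Genes of the other homeobox lists were found in wide shared domains less uniformly. These lists hold the whole Pax family, although Pax1 and Pax9 encode no homeodomain. Of the Pax genes, which pattern the neural tube, eye and kidney, Pax3 (chr1:78128801-78230600) had the longest domain, with 101.8 kb and 16894 reads in A2a and 92.4 kb and 7338 reads in D1. Pax6, needed for the eye and the cortex, had 48.0 kb and 10006 reads in A2a and 47.2 kb and 5157 reads in D1, and only Pax4 was outside. Of 12 LIM homeobox genes 7 were inside, among them Lhx6 and Lhx8 of basal forebrain interneurons and cholinergic neurons. The Lhx6 domain measured 29.0 kb (5557 reads) in A2a and 38.2 kb (2805 reads) in D1. Of 14 NK homeobox genes 7 were inside. Nkx2-1 (chr12:56444401-56549600), which specifies the medial ganglionic eminence and the thyroid, had 105.2 kb and 18215 reads in A2a, and 103.0 kb and 9000 reads over 3 islands in D1. Of 12 Iroquois and sine oculis homeobox genes 8 were inside, and of the 64 remaining homeobox genes 32. Among POU and Onecut genes the count was 4 of 17. The densest domain in A2a was at Nkx3-2, with 233 reads per kb in A2a and 119 in D1, where the highest value was 125 at Prdm13.

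Taken over all homeobox lists, 103 of 167 genes (61.7%, 54.1 to 68.7) had their TSS in a wide shared domain, against 1.3% of all coding genes. These 103 genes lay in 69 domains, and 37 of them were Hox genes in 6 domains. They are not independent, and the interval does not allow for this. Without the Hox list, a choice made after the values were seen, 66 homeobox genes were inside and 62 outside. The 64 genes of all homeobox lists that started outside the domains were mostly not free of the mark. An island met the promoter in both lists in 51 of them and in neither list in 9. The same shares over all coding promoters are not given here. The longest promoter island had a median of 14.5 kb in A2a and 10.0 kb in D1. Some of the 64 are used by striatal neurons or their progenitors. At Isl1, which is needed for D1 neurons, the longest promoter island measured 31.2 kb in A2a and 5.80 kb in D1. At Six3, which is needed for A2a neurons, the values were 9.20 kb and 2.20 kb. At Dlx5 they were 17.2 kb and 2.80 kb, and at Dlx6 they were 10.4 kb and 2.40 kb. All of these had an H3K4me3 peak at the promoter in both lists.

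**Figure D1:**
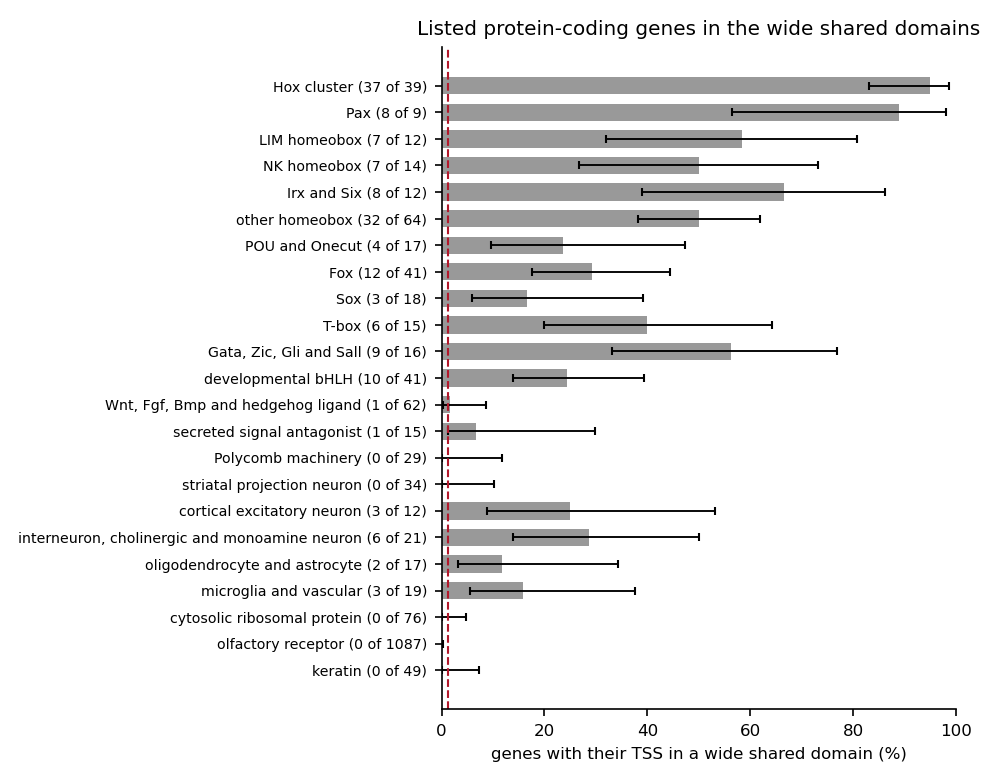
Share of listed protein-coding genes on chromosomes 1 to 19 whose TSS lies in a wide shared H3K27me3 domain (x axis, percent) for each gene list (y axis, with counts). Bars give the share, whiskers the Wilson 95% interval for counting error, and the dashed line the 1.3% of all coding genes; the Hox (37 of 39) and Pax (8 of 9) lists lie highest, and 5 lists have a share of 0.

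Of the other transcription factors, 40 of 131 listed genes (30.5%, 23.3 to 38.9) were inside. The counts were 9 of 16 Gata, Zic, Gli and Sall genes, 6 of 15 T-box genes, 12 of 41 Fox genes, 10 of 41 developmental bHLH genes and 3 of 18 Sox genes. Zic1 and Zic4, zinc-finger genes of the dorsal midline and cerebellum, shared a domain (chr9:91344001-91424000) of 80.0 kb with 15143 reads in A2a and of 78.8 kb with 7234 reads in D1. Gata4, a cardiac and endodermal factor, had 53.4 kb and 9973 reads in A2a and 48.0 kb and 4561 reads in D1. Tbx5, of heart and forelimb, had 60.8 kb and 8863 reads in A2a and 49.8 kb and 3954 reads in D1. The Fox genes outside included Foxp1, a factor of striatal neurons, for which neither list held an H3K27me3 island at the promoter.

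Of the secreted signals, which act beside these factors in the embryo, 2 of 77 genes were inside (2.60%, 0.715 to 8.98), and the interval includes the 1.3% of all coding genes. These were the ligand gene Gdf6 and the BMP antagonist gene Nog. Islands were not missing at these genes, since an H3K27me3 island met 57 of the 77 promoters in A2a and 48 in D1. The counts inside were 0 of 29 for the Polycomb machinery, 0 of 76 for cytosolic ribosomal proteins, 0 of 1087 for olfactory receptors and 0 of 49 for keratins. At the 1.3% of all coding genes, the lists of 29, 76 and 49 genes are too short for a count of 0 to be read as a difference. Of the 1087 promoters of olfactory receptor genes, which are silent in most tissues, 941 met no island in either list. The share of all coding promoters that meet an island is not given here. Neither this count nor those of the secreted signals can therefore be set against it.

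Marker genes of other brain cell types were present among the domains. Against the 1.3% of all coding genes, the counts were 3 of 12 for cortical excitatory neurons (among them Neurod1 and Fezf2), 6 of 21 for interneurons, cholinergic and monoamine neurons (Gbx2, Lhx6, Lhx8, Zic4, Nkx2-1 and Sst), 2 of 17 for oligodendrocytes and astrocytes (Gja1 and Olig2) and 3 of 19 for microglia and vascular cells (Tbx18, Foxf2 and Foxc1). Most of these 14 genes encode transcription factors, and 10 of them also stand in the factor lists above. Sst, the gene of the neuropeptide somatostatin, lay in a domain of 34.6 kb with 4907 reads in A2a and of 43.2 kb with 3034 reads in D1. Gja1, which encodes the astrocyte gap junction protein connexin 43, had 25.6 kb and 3374 reads in A2a and 20.6 kb and 1622 reads in D1.

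Among the 128 genes in neither class were transcription factor genes that the lists miss, neuronal signalling genes and genes used outside the brain. The longest domain of all (chr1:189755401-189949600) ran over 194.2 kb with 19931 reads in A2a, from the body of the phosphatase gene Ptpn14 across the TSS of Smyd2, a lysine methyltransferase gene. In D1 it met 5 wide islands of 204.4 kb in all with 12563 reads. Otop1, a proton channel gene, and Drd5, the dopamine D5 receptor gene, shared a domain (chr5:38272601-38401400) of 128.8 kb with 18133 reads in A2a and of 109.0 kb with 7468 reads in D1. Zeb2, a zinc-finger repressor gene, had 108.0 kb and 11956 reads in A2a and 80.6 kb and 4557 reads in D1. Gng2, a G protein gamma subunit gene, had 100.8 kb and 16870 reads in A2a, and 70.2 kb and 6555 reads in D1. Galnt9, a glycosyltransferase gene, had 99.4 kb and 11368 reads in A2a, and 67.6 kb and 3693 reads in D1. A domain with 4 coding TSSs held Duox2, Duoxa2, Duoxa1 and Duox1, the oxidases of the thyroid and their maturation factors, and measured 35.4 kb in A2a and 21.6 kb in D1. At Bdnf, the neurotrophin gene, the domain measured 47.2 kb (7029 reads) in A2a and 30.6 kb (2841 reads) in D1.

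No coding TSS lay in 172 domains. Of these, 65 lay mostly within a coding gene and 107 mostly outside. The longest (chr4:82463001-82558000) lay wholly inside Nfib, a forebrain and glial factor gene, 148 kb from the nearest coding TSS, with 95 kb and 10175 reads in A2a and 58.6 kb and 3412 reads in D1. The next (chr16:23764001-23854200) ended 36.8 kb from the Sst start, with 90.2 kb and 15237 reads in A2a and 94.6 kb and 8051 reads in D1. Those near Rnf152 (74.8 kb in A2a, 47.4 kb in D1), near Tnc (74.4 and 78.2 kb) and within Bnc2 (74.4 kb in each) followed. The domain in Bnc2 had the same ends in both lists.

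Domains stood in runs. Within 100 kb of another lay 134 of them (35.2%), in 56 runs, and the median gap between neighbours was 2.13 Mb. The caller was run with a gap of 600 bp, so part of the runs can be regions that it divided. For example, the Smyd2 domain ended at base 189949600 and the next began at base 189950401. The share of other islands with such a neighbour is not given here. The run with most domains held 6 over 368.2 kb (chr16:23539601-23907800) and ended at Sst. The next held 5 over 489.4 kb (chr1:189693401-190182800), from Ptpn14 over Smyd2 to Prox1, a homeobox gene of the hippocampus and lymphatic vessels. A run of 3 (chr12:56444401-56724600) held Nkx2-1, Nkx2-9 and Pax9. Per 100 Mb, chromosome 6 had most domains (24.0) and chromosome 7 fewest (2.75, from 4 domains).

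**Figure D2:**
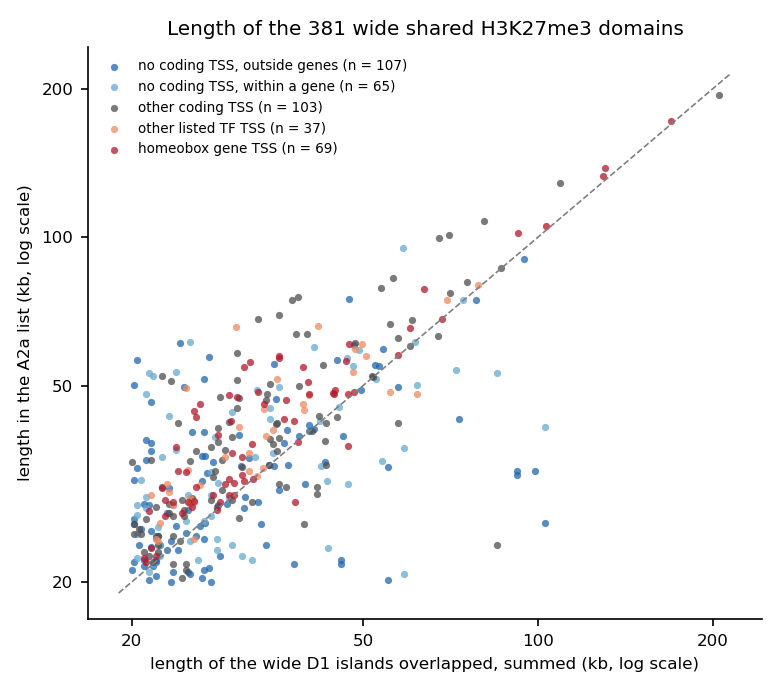
Length of each of the 381 wide shared domains in the A2a list (y axis, kb, log scale) against the summed length of the wide D1 islands it overlaps (x axis, kb, log scale), coloured by what starts in the domain. The dashed line marks equal length; 273 domains lie above it and 93 below, and among the 10 longest the ratio runs from 0.950 at Smyd2 to 1.47 at Galnt9.

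The rule chose on length and overlap in both lists, so likeness of length and coverage between A2a and D1 is described only. Islands were more often longer in A2a. The ratio of A2a to D1 length had a median of 1.12 (interquartile range 1 to 1.34), and the A2a length was larger in 273 domains, equal in 15 and smaller in 93. Overlap with a single wide D1 island was found for 364. D1 islands of any length covered a median of 94.1% of a domain, and 259 domains were covered over at least 90%. Of 762 domain edges, 404 (53.0%, 49.5 to 56.5) lay within 1 kb of a D1 island edge of the same side, 108 of them at the same base, and 673 (88.3%) within 5 kb. The share within 1 kb was 55.8% for shorter shared islands and 40.4% for wide A2a islands without a wide D1 island, whose D1 islands are shorter by construction. Island ends move in steps of the 200 bp window of the caller, which sets the finest possible difference.

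At homeobox domains the A2a length was larger in 62 of 69, equal in 4 and smaller in 3. Domains without a coding TSS outside genes were divided more evenly, with 61 longer in A2a, 44 longer in D1 and 2 equal. The highest ratios were 2.76 near Gimd1 (56.4 kb in A2a, 20.4 kb in D1), 2.52 near Fbxl4 (61.0 and 24.2 kb) and 2.49 near Rab28 (50.2 and 20.2 kb). D1 islands nonetheless covered 90.1%, 84.9% and 92.0% of these 3 domains, so part of the difference came from D1 islands shorter than the length limit. The lowest ratios were 0.257 near Rapgef2 (26.4 kb in A2a, 102.6 kb in D1), 0.280 at the receptor phosphatase gene Ptprk (23.8 and 85 kb) and 0.340 near Smyd2 (33.6 and 98.8 kb). Each of these D1 islands also met a neighbouring domain, so that 1 D1 island stood against part of a region that the A2a list divides.

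Read density in A2a had a median of 128 reads per kb over the domains (67.8 to 233), and in D1 of 70.8 (40.1 to 125). The ratio of A2a to D1 density had a median of 1.87 (interquartile range 1.69 to 1.98) in the domains and of 1.78 (1.57 to 2.01) in the 30110 shorter shared islands. It was above 1 in 380 of the 381 domains and in 29919 of the 30110 shorter islands, so this is not particular to the domains. The exception among the domains lay near Fam19a4, with 82.1 reads per kb in A2a and 86.6 in D1, where its island of 55.2 kb also met the next domain. Density differed by what started in the domain. In A2a the median was 160 reads per kb for domains with a homeobox TSS, 164 for those with another listed factor and 126 for those with another coding TSS. It was 108 within genes without a TSS and 107 outside genes. D1 gave the same division, with 84.1, 87.9, 72.2, 59.8 and 59.4 reads per kb. In neither list was the order between the homeobox and the other factor domains separated from their overlapping ranges (105 to 233 and 139 to 208 reads per kb in A2a).

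**Figure D3:**
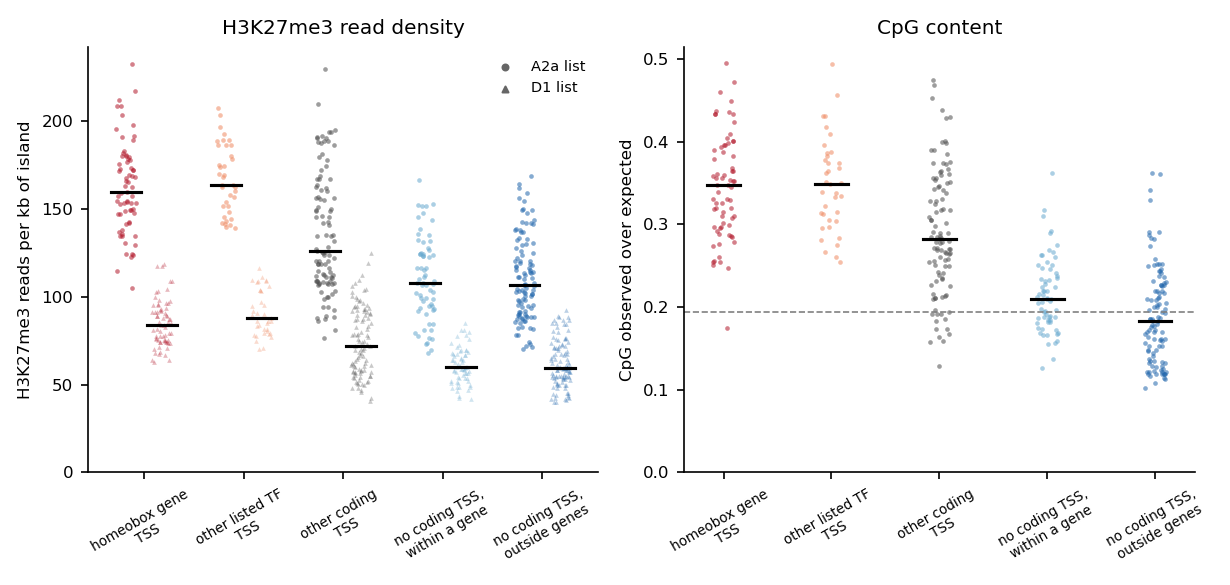
Left, H3K27me3 reads per kb of island (y axis) in the A2a list (circles) and the D1 list (triangles) for domains grouped by what starts in them; right, CpG observed over expected of the same domains, with a dashed line at the value of chromosomes 1 to 19 (0.194). Each point is 1 domain and the black bars are medians; both measures are higher where a homeobox or other listed transcription factor gene starts.

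Clusters of CpG dinucleotides are known recruitment sites of Polycomb complexes in mammals. Relative to base composition, CpG dinucleotides were more frequent in most domains than in the genome. This measure covers whole domains and not clusters, and recruitment was not tested. The ratio of observed to expected CpG had a median of 0.256 (0.102 to 0.495), against 0.194 for chromosomes 1 to 19, and 284 of 381 domains were at or above the latter. It was 0.209 in wide A2a islands without a wide D1 island and 0.190 in shorter shared islands. The median was 0.348 where a homeobox gene started, 0.348 where another listed factor started, 0.282 at other coding TSSs, 0.210 within genes and 0.183 outside genes. The highest value, 0.495, was at the 68.4 kb Hoxa domain. Of the RefSeq promoter windows of coding genes (250 bases before and 50 after the start), 239 overlapped a domain and had a median of 18 CG dinucleotides per window, against 14 over 19174 windows. The GC box GGGCGG, on either strand, was found in 57.7% of the 239 and in 48.3% of all, which is a match of letters and not a bound site.

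H3K4me3 was present in the domains, at a smaller share of promoters than over all coding genes. Of the 271 coding promoters, from 2 kb before to 1 kb after the TSS, 95 (35.1%, 29.6 to 40.9) met an H3K4me3 peak in A2a and 69 (25.5%, 20.6 to 31.0) in D1. Over all coding genes the shares were 59.3% in A2a and 56.8% in D1, and over the 2418 genes that started in shorter shared islands they were 46.9% and 36.5%. All 69 promoters with a peak in D1 also had one in A2a, 26 had one in A2a only, and 176 (64.9%) had none. The A2a list holds more peaks in all, with 22551 against 20080. It also holds more at markers of microglia and vascular cells, 8 of 19 promoters against 1 of 19 in D1, while oligodendrocyte and astrocyte markers were at 10 of 17 in each list, cortical markers at 4 and 5 of 12 and interneuron and related markers at 2 and 1 of 21. Foxf2 and Foxc1 of the microglia and vascular list, and Zic4 of the interneuron list, are themselves among the 26, so these counts are not separate from it. Whether other cells contributed to the 26 was not tested.

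The share of promoters with H3K4me3 differed by gene class. It was 17 of 103 homeobox genes (16.5%, 10.6 to 24.9) in A2a and 6 of 103 (5.83%, 2.70 to 12.1) in D1. Homeobox genes outside the domains had it at 25 of 64 (39.1%, 28.1 to 51.3) and 22 of 64 (34.4%, 23.9 to 46.6). For the other listed factors the shares inside were 12 of 40 (30%, 18.1 to 45.4) and 6 of 40 (15%, 7.06 to 29.1), against 44 of 91 (48.4%, 38.4 to 58.5) and 37 of 91 (40.7%, 31.1 to 50.9) outside. The 128 genes in neither class, which include unlisted transcription factors, had it at 66 (51.6%, 43.0 to 60.0) and 57 (44.5%, 36.2 to 53.2). Genes of a cluster share a domain and are not independent. Without the Hox list, a choice made after the values were seen, homeobox genes inside had H3K4me3 at 15 of 66 promoters (22.7%, 14.3 to 34.2) in A2a and at 5 of 66 (7.58%, 3.28 to 16.5) in D1. Outside they had it at 25 of 62 (40.3%, 29.0 to 52.7) and 22 of 62 (35.5%, 24.7 to 47.9). The counting intervals inside and outside then overlapped in A2a and not in D1, as they did for the other factors.

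Listed homeobox genes with a promoter peak in both lists were Dlx2, Emx2, Hoxa7, Irx5, Onecut1 and Prox1. Among those with a peak in A2a alone were Dlx1, Gsx2, Pax6, En2, Msx1 and Nkx2-2. Dlx1 and Dlx2, which drive the differentiation of striatal and interneuron progenitors, shared a domain (chr2:71525601-71554600) of 29.0 kb with 3330 reads in A2a and of 25 kb with 1680 reads in D1, and it held 4 H3K4me3 peaks in A2a and 3 in D1. The Hoxc domain and both Hoxb domains held none in either list. The Olig2 promoter, of the oligodendrocyte lineage, had a peak in both lists, but the strongest peak in its domain was at percentile 26.7 of all A2a peaks by −log10 q and at percentile 1.13 of all D1 peaks.

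**Figure D4:**
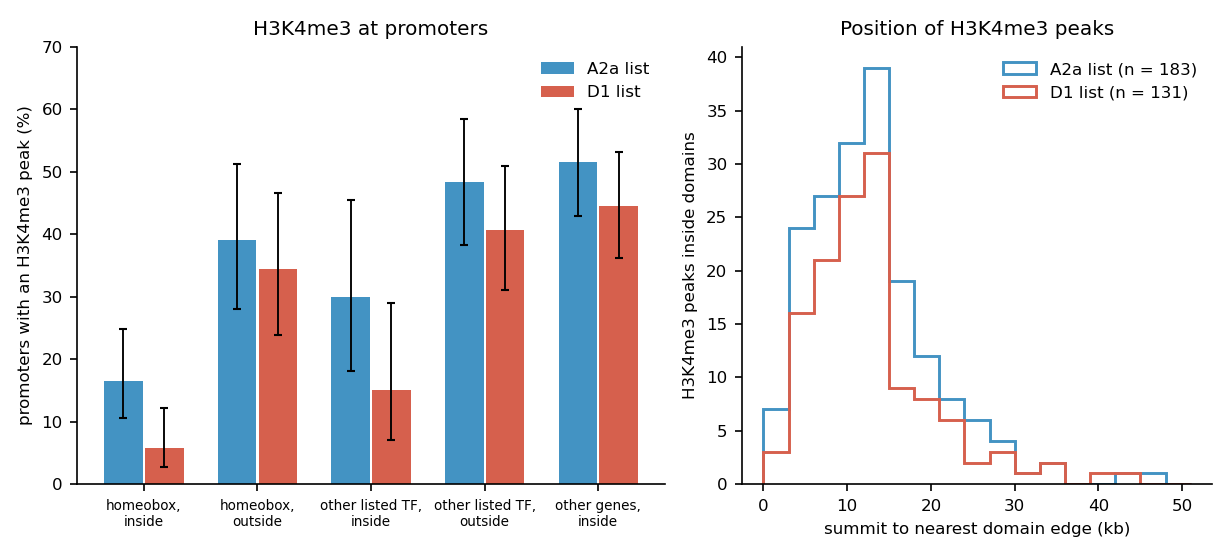
Left, share of promoters with an H3K4me3 peak (y axis, percent) in the A2a and D1 lists for listed genes inside and outside the wide shared domains, with Wilson 95% intervals for counting error; right, number of H3K4me3 peaks wholly inside a domain (y axis) by the distance of the summit to the nearest domain edge (x axis, kb, bins of 3 kb). Homeobox genes inside the domains have the lowest shares, 16.5% in A2a and 5.83% in D1, and the median summit lies about 12 kb from an edge in each list.

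By domain, 92 (24.1%, 20.1 to 28.7) held a whole H3K4me3 peak of both lists, 32 one of A2a only and 1 one of D1 only. The share with both was 3.98% of the shorter shared islands, which are shorter targets. It was 19.98% of wide A2a islands without a wide D1 island and 23.2% of wide D1 islands without a wide A2a island. Both values were near the 24.1% of the domains, so the share was not particular to them. Per 100 kb of length the domains held 1.17 A2a peaks and 0.841 D1 peaks, close to the 1.11 and 0.815 of shorter shared islands. The wide islands of A2a alone held 1.09 and 0.958, and those of D1 alone 1.73 and 1.32. No peak of either list overlapped 252 of the domains. Peaks of both lists were found in 65 of 103 domains (63.1%) with another coding TSS, in 11 of 69 (15.9%) with a homeobox TSS, in 7 of 37 (18.9%) with another listed factor and in 9 of the 172 without a coding TSS.

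The peaks inside were narrower and weaker than H3K4me3 peaks in general. The 183 A2a peaks had a median length of 969 bp and a fold enrichment of 4.88, against 1214 bp and 6.65 over all A2a peaks. The 131 D1 peaks had 859 bp and 4.56, against 1170 bp and 6.33. Their median rank by −log10 q was percentile 27.9 in A2a and 23.3 in D1. They lay well inside the domains, with a median of 12.1 kb in A2a and 12 kb in D1 from summit to the nearest edge. Summits within 1 kb of a coding TSS were 116 of 183 (63.4%) and 94 of 131 (71.8%), and 56 and 32 were farther than 1 kb from any annotated TSS. H3K4me3 was rarely found just beyond the edges, where 13 of 762 (1.71%) had a peak within 2 kb on the outer side in A2a and 10 (1.31%) in D1. In shorter shared islands these shares were 0.761% and 0.629%.

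H3K4me3 that ranked high in both lists was found in a few domains, of which 4 are given. In the domain of Tram1, a gene of the endoplasmic reticulum translocon, the percentiles were 64.1 and 64.9. The domain measured 58.2 kb with 8724 reads in A2a, and its wide D1 island 30.4 kb with 3158 reads. That D1 island ended at base 13589000, before the A2a summit of H3K4me3 at base 13589682, and did not cover it. The Skap2 domain, which lies beside the Hoxa genes, had percentiles 62.4 and 66.2 under 24.8 kb with 2170 reads in A2a and 23.6 kb with 1193 reads in D1. At Nr2f1, a nuclear receptor gene of cortical patterning, the domain held 4 peaks in each list, the strongest at percentiles 70.7 and 60.4. At Irs1, the insulin receptor substrate gene, the percentiles were 66.1 and 56.5 under 62.4 kb with 6721 reads in A2a and 57.4 kb with 3510 reads in D1. The lists come from many nuclei and different libraries, so that both marks on the same chromosome cannot be told apart from each mark in a separate subset of nuclei.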

How the data were processed

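The 8 CnR libraries used were made after INTACT from striatal nuclei, with 2 replicates per cell type and mark. Per the labels and the study's methods, the authors aligned with Bowtie2 (version 2.1.0) and SAMtools (version 0.1.19) against mm10, kept a mapping quality of at least 20 and inserts of 150 to 500 bp, and removed duplicates with Picard. For H3K27me3 the authors ran SICER (window 200 bp, gap 600 bp, false discovery rate 0.01) against a control that is not given in the sources used here; the deposited value is the count of reads in an island, without normalization. For H3K4me3 the authors ran MACS2 (q-value limit 0.01), whose deposited columns used here give each peak's fold enrichment, a ratio to local background, and its −log10 q-value. Each list pools its replicates, so no test across samples could be made and no such test is given. The depth of each library is not given in the sources used here; a deeper library can give more and longer islands.

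The lists were intersected in Python (version 3.11.15) with numpy (version 2.4.6), pandas (version 2.3.3) and scipy (version 1.17.1), with genes from GENCODE vM21 and bases from GRCm38 read with pysam (version 0.24.0) and samtools (version 1.23.1). Figures used matplotlib (version 3.10.9). A member is named by the coding genes that start in it, or as near the closest one; a D1 length sums all wide D1 islands that a member overlaps, which may be shared with a neighbour. Regions named were the 10 longest members, the 3 highest and 3 lowest length ratios, the 5 strongest in H3K4me3 of both lists, the 5 longest without a coding TSS, the 5 with most TSSs, those nearest each length limit, and genes of 23 lists. The members and lists were chosen with earlier results of these data known. The grouping of members by what starts in them, the microRNAs, runs, outer edges, the splits of listed genes inside and outside, and Nkx3-2, Bdnf and the domain near Fam19a4 were chosen after values were seen. Some regions and genes that met these rules are not reported here. Sequences with over 30 bases of annotated UTR were not printed. The selection was tested on 1000 simulated regions, and all 339 that met the rule were recovered. The overlap, the length limit, the unit, the gene set, the TSS, the peaks, the promoter and the edge tolerance were varied. The other 20 samples were not analysed here.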

Additional observations from a re-analysis of the deposited data

How the results depend on the processing

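Of 77 values of 13 results under alternatives, 48 stayed within the counting interval of the reported value (for the number of domains, within 1.5 times) and 29 did not. The number of domains, 381, was 721 at 15 kb, 163 at 30 kb and 1766 where islands within 5 kb were merged first. The share with a coding TSS, 54.9%, was 47.6% at 15 kb, 67.5% at 30 kb, 38.2% after merging, 68.0% with all annotated genes and 59.8% with the TSS of any transcript. The share of homeobox genes, 61.7%, was 73.7% at 15 kb, 41.9% at 30 kb and 77.8% after merging. H3K4me3 peaks per 100 kb, 1.17 in A2a and 0.841 in D1, were 1.41 and 1.06 at 15 kb and 0.765 and 0.576 after merging, and the A2a value was 0.950 when the A2a list was cut to the size of the D1 list by −log10 q. Promoters with H3K4me3, 35.1% in A2a and 25.5% in D1, were 41.5% and 31.0% at 15 kb, 44.2% and 36.4% after merging, and 24.1% and 17.1% with all annotated genes. The edge share, 53.0%, was 36.7% after merging, 42.1% with D1 islands as the unit and 68.2% with a tolerance of 2 kb, and the length ratio, 1.12, was 1.17 with D1 islands as the unit. The CpG ratio, 0.256, was 0.246 at 15 kb, 0.277 at 30 kb and 0.204 after merging. Changes of the length limit or of merging change which islands are selected; other causes were not tested. A reciprocal overlap of 50% moved none of the 11 results it was run for beyond these bounds. Leaving out the Hox list, chosen after seeing the data, kept both homeobox promoter shares within their intervals. Leaving out a replicate was not run, because the lists pool both. No paired analysis was possible because the lists hold no value per replicate. The read depth of a library limits how long an island can be called, and the depth of each one is not given in the sources used here.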
